A study of Mus musculus with 6 samples.

Results

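The SPARC family is a set of secreted matricellular glycoproteins, 8 genes of the 22180 measured here: Sparc, Sparcl1, Smoc1, Smoc2, Spock1, Spock2, Spock3 and Fstl1. The members were chosen by gene symbol, and the probe set of each gene was selected on its mean signal over all 6 arrays. Each symbol had 1 probe set, so that step removed nothing. Sparcl1, its nearest relative, is set against the founding member Sparc. The family and this pair were picked with earlier results of these arrays known, so the differences are a description of these samples.

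The samples were MC3T3-E1 cells, an established mouse line from calvaria that can mature into osteoblasts, profiled as whole-cell total RNA on 6 Affymetrix arrays. After confluence every culture was kept for 14 days in osteogenic medium, to which β-glycerophosphate at 10 mM and ascorbic acid at 50 µg/ml had been added. The DMSO group of 3 samples received the solvent, and the NU7441 group of 3 received 1 µM NU7441, an inhibitor of the catalytic subunit of the DNA-dependent protein kinase. Both groups come from the same unmodified line, and nothing in the labels says whether the numbered samples were separate cultures, so the p-values describe only how far these samples scatter, which may be technical scatter.

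Proteins of this family share an extracellular calcium-binding domain and a follistatin-like domain, and they tune how cells attach to matrix and respond to growth factors without being structural parts of it. SPARC, or osteonectin, is among the most abundant non-collagen proteins of bone, where it binds collagen and mineral. Hevin, the product of Sparcl1, carries a long acidic region ahead of the shared domains and is best known from vessel walls and from astrocytes, where it promotes synapse formation. The SMOC proteins add thyroglobulin domains, the testicans encoded by the Spock genes carry glycosaminoglycan chains, and follistatin-like 1 binds bone morphogenetic proteins.

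Values below are log2 array signals as deposited, so a step of 1 is a 2-fold step in signal. A probe set's level cannot be set against that of another gene, and only differences between arrays are compared. Array medians lay between 6.38 and 6.42, lower quartiles between 5.11 and 5.16 and the highest values between 13.94 and 13.96. Every one of 8 osteoblast markers lay above the lower quartile (Bglap lowest, at a mean of 7.34). Markers of other cell types were mostly above it too: 1 of 5 was below the lower quartile of every array for endothelial (Emcn, mean 4.16), macrophage (Ptprc, 4.59), skeletal muscle (Myh1, 4.57) and chondrocyte markers (Matn1, 5.10), and 0 for adipocyte, pericyte and smooth muscle, and glial and neuronal markers. The highest members of these 4 lists were Cdh5 at 6.25, Cd68 at 7.81, Acta1 at 7.41 and Sox9 at 10.44. Lying above the lower quartile thus does not set osteoblast markers apart from the others, and signal over background was not analysed here. The transcript of the inhibited kinase itself, Prkdc, had a difference of 0.04 (SE 0.06). A kinase inhibitor need not alter its target's transcript, so this value does not check the labels.

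The design sets the inhibitor against its solvent to see what blocking the kinase does to transcripts of maturing osteoblasts. Within the SPARC family Sparcl1 had the largest difference: its signal with NU7441 was 0.65 times that with DMSO, while that of Sparc was 1.02 times. No member passed limma's test over all genes, where 0 of 22180 genes, or 0%, were called at an adjusted p under 0.05. Among the members Sparcl1 had the lowest adjusted p, 0.598, which is also the lowest over all genes and is shared by others. At an unadjusted p under 0.05 in limma there was 1 of the 8 members, Sparcl1, beside 6.79% of all genes. The members were split evenly, with 4 higher and 4 lower and a median difference of -0.01, beside 0.00 over all genes.

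**Figure D1:**
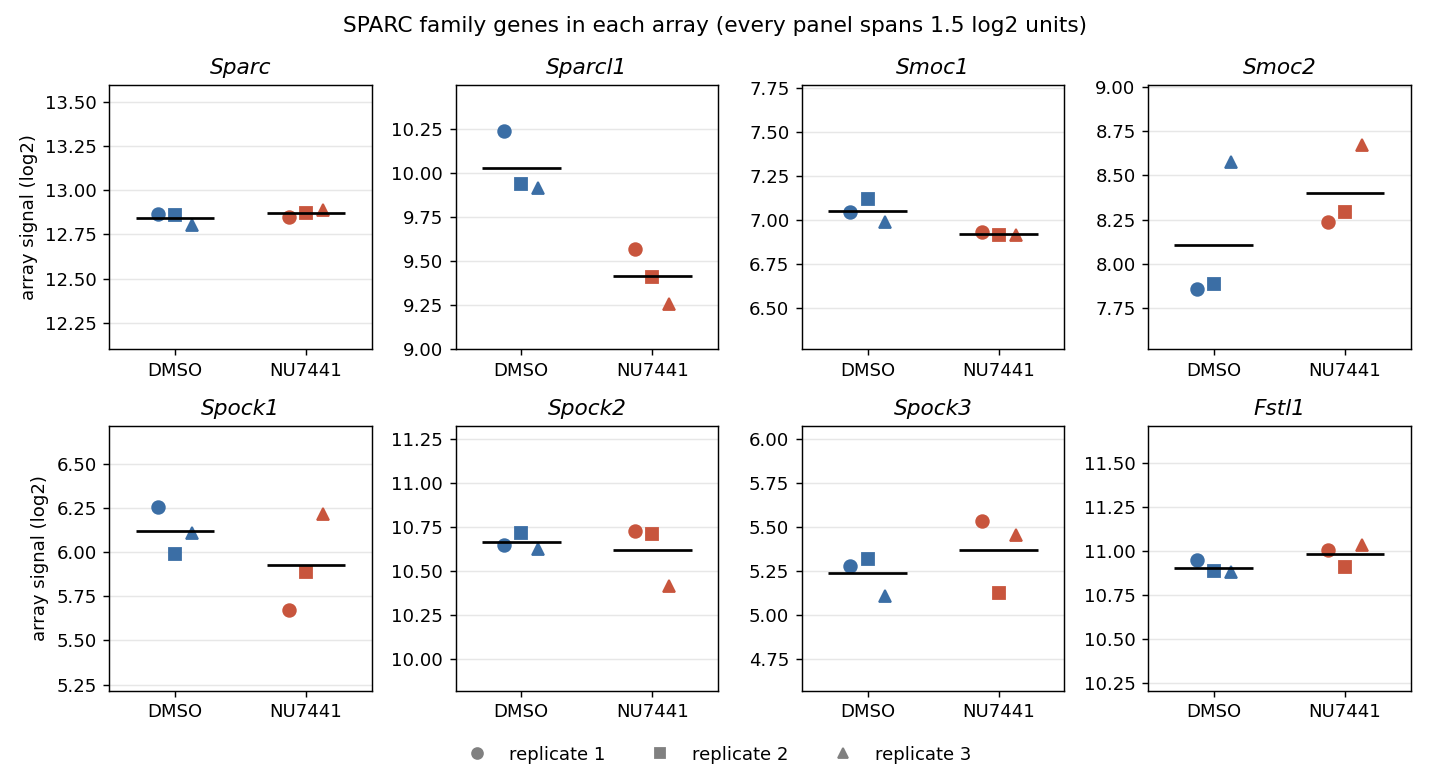
Log2 array signal of each family member (vertical axis, 1.5 log2 units in every panel) in 3 DMSO and 3 NU7441 arrays, with a symbol per replicate number and a bar at the group mean. The Sparcl1 groups lie apart, between 9.91 and 10.24 with DMSO and between 9.26 and 9.57 with NU7441, while all 6 Sparc values lie between 12.81 and 12.89.

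Sparcl1 was at 10.24, 9.94 and 9.91 in DMSO 1 to 3 and at 9.57, 9.41 and 9.26 in NU7441 1 to 3. Every NU7441 value lay below every DMSO value. The group means were 10.03 ± 0.18 and 9.41 ± 0.15 (SD, n = 3 each), a difference of -0.62 (SE 0.12) with an unadjusted 95% interval of -0.89 to -0.34. As a fold of signal the interval ran from 0.54 to 0.79, so it lay below no change and above a 2-fold loss. Among all genes Sparcl1 stood at place 36 from the most negative difference and at place 38 by smallest p. Its p was 0.00116 and its adjusted p 0.598 in limma, so it did not pass. In bulk RNA, fewer cells with the transcript and less transcript per cell cannot be told apart.

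Same-numbered arrays gave like differences for Sparcl1: -0.67 for the arrays numbered 1, -0.52 for those numbered 2 and -0.65 for those numbered 3. With these taken as pairs (the replicate number as a block) the standard error was 0.07 in place of 0.12, and the adjusted p from limma was 0.311. With pairs, an intensity trend of the variance and a robust prior together, the adjusted p of Sparcl1 was 0.00576, and limma then called 100 genes, or 0.451%, Sparcl1 being the 1 member among them. Over the 16 alternative settings the difference ran from -0.69 to -0.51, and its adjusted p from 0.00576 to 0.912. The call thus rested on that single combination, while the direction was the same in all 16. Settings that change only the error model or the set of genes leave the difference at -0.62. Leaving out a single array could not turn it either, as the groups did not overlap.

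Sparc was at 12.86, 12.86 and 12.81 in DMSO 1 to 3 and at 12.85, 12.87 and 12.89 in NU7441 1 to 3. The groups overlapped, and DMSO 3 and NU7441 3 were the ends of a narrow range. The means were 12.84 ± 0.03 and 12.87 ± 0.02 (SD, n = 3 each), a difference of 0.03 (SE 0.06, adjusted p = 0.948 in limma). The unadjusted 95% interval, -0.11 to 0.17, or 0.92 to 1.12 as a fold of signal, left room for a small change in either direction. Sparc lay in the top part of the arrays' range, and whether its probe set still responded in proportion at that level was not tested.

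Taken within each array, the signal of Sparcl1 relative to Sparc, log2 Sparcl1 minus log2 Sparc, was -2.62, -2.92 and -2.89 in DMSO 1 to 3 and -3.28, -3.46 and -3.63 in NU7441 1 to 3. Its absolute size has no meaning across probe sets, but its shift does, and it is free of any offset that an array adds to both genes. The shift was -0.64, from a mean of -2.81 ± 0.16 to -3.46 ± 0.18 (SD, n = 3 each), and the groups did not overlap. Nearly all of it came from Sparcl1, given the 0.03 of Sparc. No test is given for it, since the pair was picked with these results known.

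**Figure D2:**
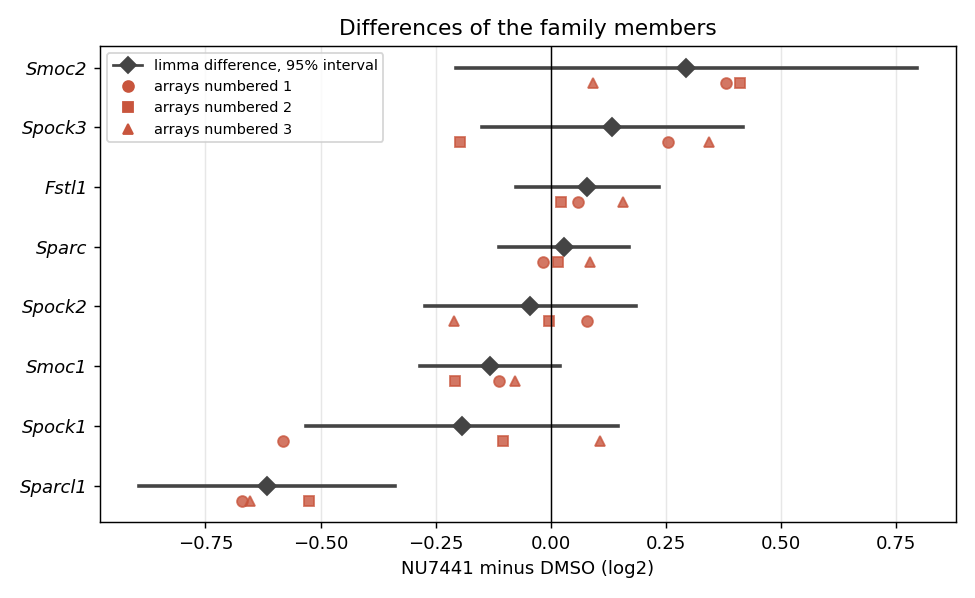
NU7441 minus DMSO on the log2 scale (horizontal axis) for the 8 members, with the limma difference as a diamond, its unadjusted 95% interval as a bar, and the difference of each pair of same-numbered arrays as a red symbol. Only the bar of Sparcl1, from -0.89 to -0.34, lies wholly to one side of 0, and the 3 pairs of Spock1, Spock2, Spock3 and Sparc fall on both sides.

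The SMOC genes differed in opposite directions. SMOC1 is known as a secreted antagonist of bone morphogenetic protein signalling that limb and eye development need. Smoc1 was at 7.05, 7.12 and 6.99 in DMSO 1 to 3 and at 6.93, 6.91 and 6.91 in NU7441 1 to 3, so its groups did not overlap either. The difference was small, -0.13 (SE 0.06, adjusted p = 0.764 in limma), or 0.91 times the DMSO signal, and the NU7441 arrays were close together (SD 0.01). Sparcl1 and Smoc1 were thus the 2 of 8 members with every NU7441 value below every DMSO value, beside 6.64% of all genes. With 0 of 8 the other way round, the background was 6.13%. Sparcl1 and Smoc1 are both in the upper 50 percent by level, where 1114 of 11090 genes lay apart below and 526 above.

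SMOC2, a matrix protein found at basement membranes, had the largest positive difference of the family. Smoc2 was at 7.856, 7.884 and 8.579 in DMSO 1 to 3 and at 8.236, 8.295 and 8.671 in NU7441 1 to 3. The array numbered 3 was the highest of each group, and DMSO 3 lay above NU7441 1 and 2, so the groups overlapped. The difference was 0.29 (SE 0.21, adjusted p = 0.830 in limma), with an interval of -0.21 to 0.79. Differences within same-numbered arrays were 0.38, 0.41 and 0.09. With the replicate block the standard error was 0.09 and the unadjusted p 0.0202, so 2 members, Sparcl1 and Smoc2, were under 0.05 in limma beside 9.37% of all genes, and Smoc2 still did not pass (adjusted p = 0.487).

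In 7 of the 8 osteoblast markers, all but Col1a1, the array numbered 3 was the highest of each group, as in Smoc2. The share of all genes with that order was not counted, so it cannot be called particular to osteoblast markers. In lists described below, 4 of 7 follistatin-domain relatives, 4 of 9 growth factor genes and 2 of 4 glial and neuronal markers had it too. Of 11 proteases and inhibitors 0 had it, and of 9 genes of the collagen list 0. Sp7, the transcription factor osterix, was at 10.04, 9.96 and 10.69 in DMSO 1 to 3 and at 10.46, 10.67 and 11.16 in NU7441 1 to 3. Ibsp, bone sialoprotein, was at 11.41, 11.78 and 12.67 and at 12.02, 12.32 and 13.07 in the same order. All 8 osteoblast markers were higher with NU7441, with a median of 0.52, where 51.3% of all genes were higher. In limma over all genes 0 passed, and 1 of the 8, Alpl, had an unadjusted p under 0.05, beside 6.79% of all genes. With pairs, the trend and the robust prior together, 4 of the 8 were called in limma, beside 0.451% of all genes. They were Ibsp (adjusted p = 0.00755), Phex (0.00807), Alpl (0.00823) and Sp7 (0.0172). Of the 8 markers 7 were higher in 3 of 3 pairs, beside 16% of all genes. The exception, Dmp1, differed by 0.14 (SE 0.61) and was lower with NU7441 in the arrays numbered 3, by -0.73. Whether maturation of the cultures has a part in the Smoc2 or Sparcl1 values was not tested.

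The testicans are proteoglycans best known from brain, and testicans can inhibit cathepsin L and act on membrane-type metalloproteinases. Spock1 was at 6.26, 5.99 and 6.11 in DMSO 1 to 3 and at 5.67, 5.89 and 6.22 in NU7441 1 to 3. NU7441 3 lay within the DMSO range, and the difference of -0.19 (SE 0.14, adjusted p = 0.830 in limma) was -0.34 without NU7441 3, -0.12 without DMSO 1 and -0.07 without NU7441 1. Spock2 was at 10.65, 10.71 and 10.62 in DMSO 1 to 3 and at 10.73, 10.71 and 10.41 in NU7441 1 to 3. Its difference of -0.04 (SE 0.10, adjusted p = 0.949 in limma) had the opposite sign, 0.057, without NU7441 3, the lowest array.

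Spock3 was at 5.28, 5.32 and 5.11 in DMSO 1 to 3 and at 5.53, 5.12 and 5.45 in NU7441 1 to 3. These values lie near the arrays' lower quartiles, so Spock3 was dim, and whether it was above background was not analysed here. Its difference was 0.13 (SE 0.12, adjusted p = 0.857 in limma), with overlapping groups and pairs on both sides of 0, and it ran from 0.05 without NU7441 1 to 0.26 without NU7441 2. None of the 3 testicans thus held a direction over the 3 pairs.

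Fstl1 encodes a secreted protein induced by transforming growth factor beta that binds BMP4 and is made by mesenchymal cells. It was at 10.95, 10.89 and 10.88 in DMSO 1 to 3 and at 11.01, 10.91 and 11.03 in NU7441 1 to 3. The difference was 0.08 (SE 0.07, adjusted p = 0.847 in limma), and NU7441 2 lay within the DMSO range. It was higher in 3 of 3 pairs, as Smoc2 was, where 16% of all genes were higher in every pair. Sparcl1 and Smoc1 were lower in 3 of 3 pairs, where 16.6% of all genes were. The interval of Fstl1, -0.08 to 0.23, leaves a 2-fold change in signal outside it, as do those of the other 7 members.

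Promoter sequence was held for 5 of the 8 members in the RefSeq table (GRCm38.p6), as windows from 250 bases before to 50 bases after a gene's start. The windows were searched on both strands for TGANTCA, because alphaNAC is known as a coactivator of Jun in osteoblasts. These letters are a looser form of the AP-1 site TGA(C/G)TCA, with any base allowed in the middle. Of all 32851 windows 7.81% held these letters, and 1 of the 5 members did, Spock1. The Spock1 window, with the match in capitals, is shown for that reason. That of Sparc, which has no match, is shown as the gene with which Sparcl1 is compared. They lie at chr13:57908283-57908582 and chr11:55420031-55420330, both on the minus strand, and read 5′ to 3′ along the gene.
Spock1: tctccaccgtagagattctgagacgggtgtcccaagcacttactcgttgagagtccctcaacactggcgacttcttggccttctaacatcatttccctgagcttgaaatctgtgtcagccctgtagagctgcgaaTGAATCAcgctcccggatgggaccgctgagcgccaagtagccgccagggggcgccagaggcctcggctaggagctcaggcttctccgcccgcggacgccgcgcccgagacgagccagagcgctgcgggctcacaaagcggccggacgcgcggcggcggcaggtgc
Sparc: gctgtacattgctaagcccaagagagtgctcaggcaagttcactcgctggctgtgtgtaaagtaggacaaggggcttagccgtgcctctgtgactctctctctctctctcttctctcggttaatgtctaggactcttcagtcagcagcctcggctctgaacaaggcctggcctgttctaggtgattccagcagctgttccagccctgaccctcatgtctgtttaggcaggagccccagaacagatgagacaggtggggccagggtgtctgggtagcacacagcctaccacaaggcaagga
The Spock1 match starts at position -115 from the gene's start. Its middle base is A, so it is not the strict AP-1 site with C or G there. Jun itself differed by -0.45 (SE 0.09), and Spock1 by the -0.19 given above, neither passing without pairs. With pairs, the trend and the robust prior together, Jun was called (adjusted p = 0.0291 in limma), lower in 3 of 3 pairs, and Spock1 was not (0.665). A match in these letters is no evidence that a factor binds there.

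Genes that bind, cleave or resemble the family were taken from 5 lists. Of 7 follistatin-domain relatives 7 were higher, where 51.3% of all genes were, by 0.01 to 0.27, and 0 passed. Only 3 of the 7 were higher in 3 of 3 pairs, beside 16% of all genes. The mean of 1, Fstl5 (4.22 with DMSO), lay below the lower quartile of every array. Their median was 0.05, beside 0.00 over all genes, and between 0.03 without NU7441 3 and 0.11 without NU7441 1. Fst, follistatin, which traps activins, was at 10.93, 10.76 and 11.06 in DMSO 1 to 3 and at 11.23, 11.14 and 11.19 in NU7441 1 to 3, with no overlap (difference 0.27, SE 0.09, adjusted p = 0.698 in limma). Agrn, agrin of basement membranes, differed by 0.18 (SE 0.07) and Fstl4 by 0.17 (SE 0.09). Fst and Agrn, 2 of the 7, had an unadjusted p under 0.05 in limma, beside the 6.79% of all genes.

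Of 9 genes for collagens, their chaperone and a crosslinker, 4 were higher and 5 lower, with a median of -0.01 that had either sign when single arrays were left out (-0.02 to 0.03), and 0 passed or had an unadjusted p under 0.05 in limma. Col1a1 encodes the main collagen that SPARC binds in bone. It was between 13.458 and 13.495 with DMSO and between 13.505 and 13.528 with NU7441, a difference of 0.04 (SE 0.06). Col1a1 and Col1a2, 2 of the 9, had every NU7441 value above every DMSO value, beside 6.13% of all genes. Whether such bright probe sets still responded in proportion was not tested. Tgm2, the transglutaminase that crosslinks matrix proteins, differed by -0.23 (SE 0.11) and Col4a1 by -0.10 (SE 0.12). Apart from Tgm2 and Col4a1, the differences of this list lay between -0.04 and 0.04.

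**Figure D3:**
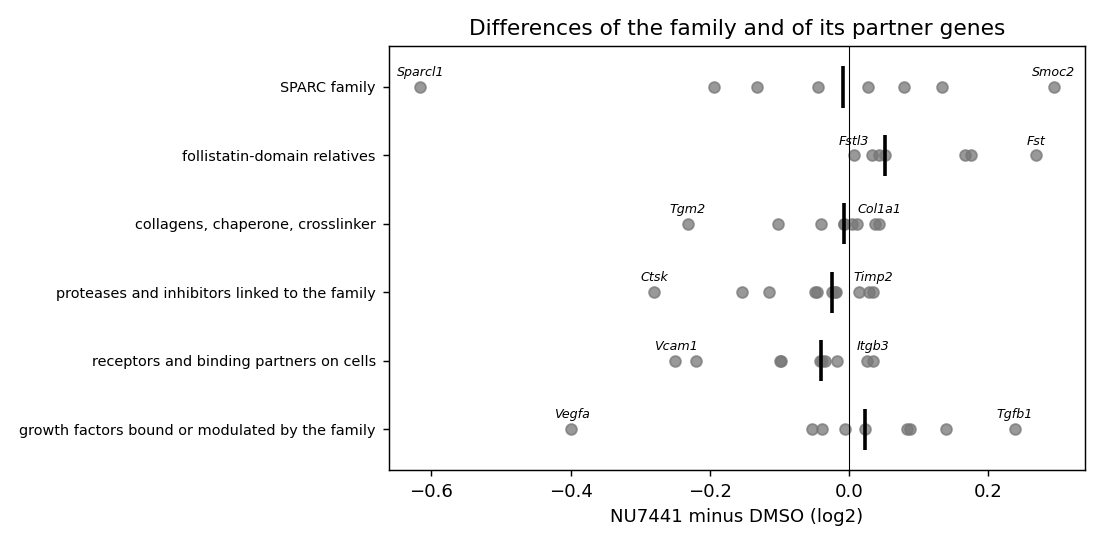
NU7441 minus DMSO on the log2 scale (horizontal axis) for each gene (grey point) of the family and of 5 lists of related genes, with the median as a black bar and the genes at both ends named. Sparcl1 at -0.62 lies further from 0 than any gene of these lists, the next being Vegfa at -0.40. Osteoblast markers are not plotted, and their differences ran from 0.04 to 0.97 (Phex, SE 0.58).

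Of 11 proteases and inhibitors linked to the family 3 were higher and 8 lower, with a median of -0.02. Ctsk, the collagen-degrading cathepsin K, differed by -0.28 (SE 0.15), Adamts5 by -0.15 (SE 0.10) and Ctsb by -0.11 (SE 0.11). Of 10 measured receptors and binding partners, of 11 listed, 2 were higher and 8 lower, with a median of -0.04. Vcam1, an adhesion receptor that SPARC binds on endothelium, differed by -0.25 (SE 0.14), the collagen receptor Ddr2 by -0.10 (SE 0.07) and Cd14 by -0.22 (SE 0.16). In these 2 lists 0 genes passed and 0 had an unadjusted p under 0.05 in limma. Among genes in the upper 50 percent by level, 41.9% were higher, so an excess of lower genes was also the background of bright genes.

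Growth factors bound or modulated by the family, with a receptor, gave 5 of 9 higher and 4 lower. Their median was 0.02, but -0.05 without DMSO 2 and 0.09 without DMSO 3 or NU7441 2, so it has no settled sign. Vegfa, which SPARC can bind, was at 11.71, 11.79 and 11.61 in DMSO 1 to 3 and at 11.28, 11.32 and 11.32 in NU7441 1 to 3. Its groups did not overlap, and its difference was -0.40 (SE 0.07, adjusted p = 0.598 in limma). With pairs, the trend and the robust prior together, the adjusted p of Vegfa was 0.0160 in limma, as the 1 gene of the 5 lists called there. Tgfb1 differed by 0.24 (SE 0.10), and Bmp2 by 0.08 (SE 0.07). Vegfa and Tgfb1 were the 2 with an unadjusted p under 0.05.

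Because Sparcl1 is known from vessels and glia, its values were set beside markers of those cells. The summed signal of 5 endothelial markers lay between 7.96 and 8.08 (log2) with DMSO and between 7.86 and 8.14 with NU7441, and that of 5 pericyte and smooth muscle markers between 9.64 and 10.36 and between 9.78 and 10.35. For 4 measured glial and neuronal markers the ranges were 8.38 to 8.52 and 8.38 to 8.63. The groups overlapped in each of these sums, as they did for macrophage (8.73 to 9.01 and 8.70 to 8.85), chondrocyte (10.77 to 10.90 and 10.82 to 10.93), skeletal muscle (8.88 to 9.03 and 8.95 to 9.03), adipocyte (8.04 to 8.12 and 8.11 to 8.26) and osteoblast markers (14.08 to 14.59 and 14.33 to 14.78). Signals were summed on the linear scale, so the brightest gene weighs most, such as Col1a1 (mean 13.49) for osteoblasts. That overlap thus says little about the other osteoblast markers, and all 8 were higher with NU7441. Even the brightest endothelial marker, Cdh5 at 6.25, was below every array median. The sum of such dim endothelial markers cannot show a change in those transcripts. The brightest pericyte and smooth muscle marker, Cspg4 (mean 9.37), and glial and neuronal marker, Rbfox3 (7.22), were above every array median. Whether any such cells were present in this line was not tested.

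Genes whose values followed those of Sparcl1 over the 6 arrays were ranked by Pearson's r among 10359 of the 11090 genes in the upper 50 percent by level, with predicted genes, small RNAs, olfactory receptor and immunoglobulin genes left out. The closest were the translation factor gene Eif4a1 (r = 0.991), the sodium pump subunit gene Atp1b1 (0.989), Ttc39b (0.987), the interleukin-6 receptor gene Il6ra (0.987) and Bin1 (0.984). Their own differences ran from -1.13 for Atp1b1 to -0.10 for Eif4a1. The most opposed were Ldb1 (r = -0.994), Rab44 (-0.993), Cpxm2 (-0.988), Deptor (-0.987) and Olfml3 (-0.982). With only 6 arrays in 2 groups, 195 genes reached 0.9 or more and 105 reached -0.9 or less, so these values describe the arrays and are given with no p. Spock1 and Spock3 lay below that level and were not ranked, and none of the other family members was on either list.

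**Figure D4:**
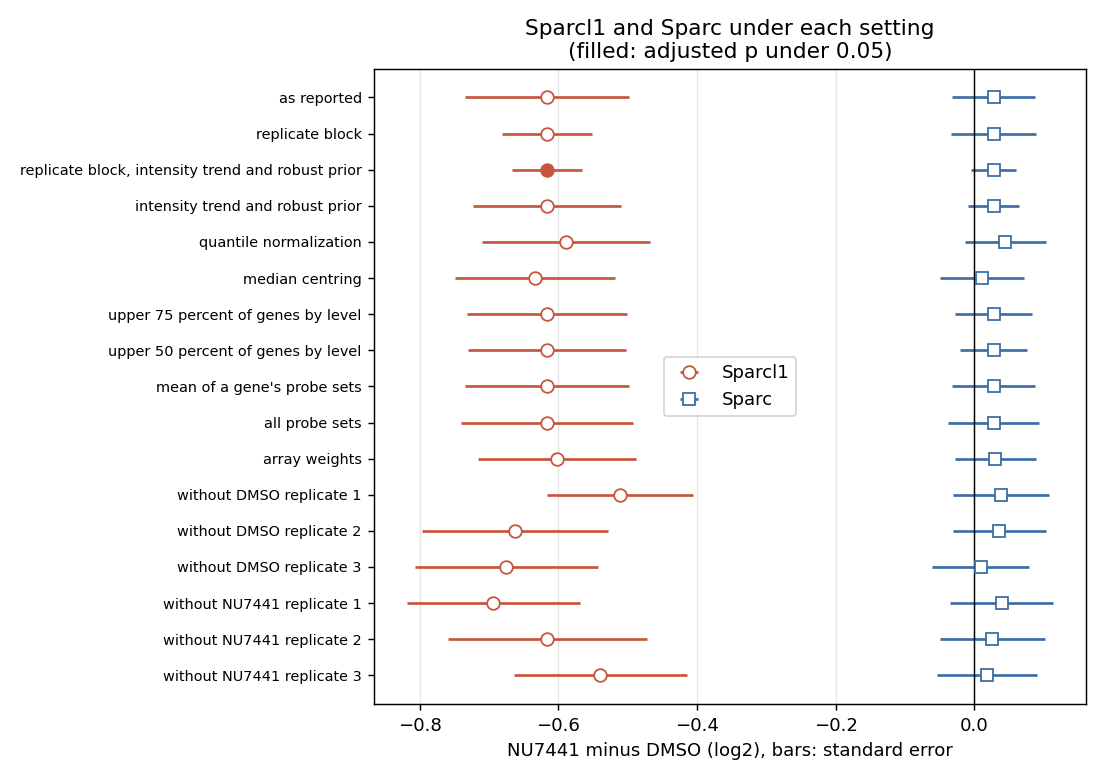
NU7441 minus DMSO on the log2 scale (horizontal axis, bars showing 1 standard error) for Sparcl1 (red circles) and Sparc (blue squares) as reported and under 16 other settings, filled where the adjusted p was under 0.05. Sparcl1 lies between -0.69 and -0.51 throughout, filled in 1 setting, and Sparc between 0.01 and 0.04.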

How the data were processed

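The deposited table holds 41345 probe sets on 6 arrays. The deposited values were read as log2 from their range, and how background, summarisation and normalization were handled is not stated in the labels. RNA was column-purified and prepared to the array maker's instructions, per the labels' protocols. The values were used without further normalization. Symbols came from the platform annotation: 23521 probe sets had 1 symbol, 1814 several and 16010 none. For each of 22180 genes the single-symbol probe set with the highest mean was kept, with no filter on level.

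Groups were compared with limma 3.58.1 under R 4.3.3, by a two-sided test from lmFit with eBayes and no term but group, adjusted by Benjamini-Hochberg over all genes, with a threshold of 0.05, after a check on simulated data. The number of arrays limits the precision. Members, lists, alternatives and the naming rule (all members, the 3 genes of each list with the smallest p, the 5 genes most and least like Sparcl1) were chosen with earlier results of these data known. Over all genes, deviations of same-numbered arrays from their group means correlated at 0.149 to 0.339, and those of different numbers at -0.246 to 0.094. Each same-numbered value was over 0.1, the rule used for taking the numbers as possible pairs. Deviations from a group mean cancel within the group, which pulls the different-number values down when the same-number ones are positive. No label states pairing, so the main test kept group only, and the replicate block was an alternative. Alternatives were a replicate block, an intensity trend with a robust prior, other normalizations, level filters, array weights, probe set averaging, testing all probe sets and leaving out single arrays. Figures used matplotlib 3.10.9.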

Additional observations from a re-analysis of the deposited data

How the results depend on the processing

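With the replicate block, an intensity trend and a robust prior together, limma called 100 genes in place of 0, and Sparcl1, at the same -0.62, was called. Under the replicate block alone it called 0 genes, with a smallest adjusted p of 0.229, and no other call changed. In the other settings 0 genes were called, with 1174 to 1746 at an unadjusted p under 0.05 when single arrays were left out. Sparcl1, Sparc, Smoc1, Smoc2, Spock1, Spock3 and Fstl1 kept their direction in every setting that tested them. Settings that change only the error model or the set of genes leave a member's difference as it was, so they could not turn it. Spock2 turned when NU7441 3 was left out, its differences running from -0.099 to 0.057 over the arrays left out, and the cause was not tested. Smoc2 was 0.17 without DMSO 1, 0.18 without DMSO 2, 0.16 without NU7441 3 and 0.53 without DMSO 3. The shift of Sparcl1 against Sparc ran from -0.73 to -0.55 over the arrays left out. The median of the protease list was -0.06 without DMSO 3 or NU7441 2 and -0.07 without NU7441 1, and that of the receptor list -0.08 without DMSO 2. Over the arrays left out, the growth factor median ran from -0.047 to 0.091 and the collagen median from -0.019 to 0.028, each turning sign. The filters on level left out Spock3 at 75 percent, and Spock1 and Spock3 at 50 percent. Signal over background was not analysed here, which limits Spock3 most.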
